A study of Homo sapiens with 12 samples.

Results

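The axon guidance ligands and receptors are 63 of the 17096 genes listed. They were chosen by symbol: semaphorins (SEMA, 20 genes), plexins (PLXN, 9), neuropilins (NRP, 2), ephrins (EFN, 8), Eph receptors (EPH, 11), SLIT ligands (3), ROBO receptors (3), netrins (NTN, 2) and UNC5 receptors (5), which makes 33 ligands and 30 receptors. The symbol pattern matched 68 entries. Of these, 2 antisense RNAs were left out, and 3 genes did not reach 1 FPKM (fragments per kilobase of transcript, scaled to library size) in at least 2 of the 12 libraries. Just outside that level, ROBO4 reached 1 FPKM in a single library (1.45 in labelled knockout replicate 2 of day 15), and EPHA10 and NTN5 reached it in none. Just inside it, PLXNB3 and EPHA3 reached 1 FPKM in exactly 2 libraries. The 2 of EPHA3 are the labelled knockout pair of day 15, so its rise there was in part a condition of entry. The pattern also takes in UNC5CL, which resembles the UNC5 proteins in sequence and is not known as a netrin receptor.

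Axon guidance proteins steer growing nerve fibres, and the same families position and separate cells in many other tissues. Semaphorins signal through plexins, and most of the secreted class also need neuropilins, which are shared with vascular endothelial growth factor. Ephrins are held on the cell surface and activate Eph receptor tyrosine kinases on the neighbouring cell, while SLIT proteins act on ROBO receptors and netrins on DCC and the UNC5 family. In the developing heart these families are known for roles in outflow tract septation, valve and chamber formation, the sorting of arteries from veins and the guidance of cardiac neural crest.

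The libraries come from H7, a human embryonic stem cell line, taken through directed differentiation into cardiomyocytes. The labels give 2 genotypes, wild type and E2A-/-, at days 3, 7 and 15, with 2 libraries in each of the 6 groups, and call the cells cardiac mesoderm at day 3 and cardiomyocytes at days 7 and 15. E2A is an older name of TCF3, an E protein of the basic helix-loop-helix class of transcription factors. How the knockout was made, whether it is 1 clone, and whether replicates were separate cultures are not stated, so p-values reflect how far these libraries lie apart, and that spread could be technical. No fall of TCF3 RNA passed the test in the libraries labelled knockout. It was at 179.5 and 148.9 FPKM in wild type and 145.9 and 148.1 in the labelled knockout at day 3 (log2 change -0.15, adjusted p = 0.618), where the latter pair was the lower. TCF3 was at 135.2 and 138.0 against 179.9 and 172.1 at day 7, and at 74.4 and 98.2 against 169.7 and 108.3 at day 15 (log2 change 0.66, SE 0.19, adjusted p = 0.0234 by limma). A level of RNA over the whole gene does not show whether an edited allele makes protein, and every direction given for the labelled knockout rests on the labels.

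Library sums ran from 577716 to 734958 FPKM, and the correlation of replicates over genes was 0.970 to 0.989 (Pearson's r of log2 values). Sequencing depth could not be recovered from these values. Mitochondrially encoded transcripts held 8.14% to 26.2% of summed FPKM, and their share moved with the groups: at day 7 it was 8.55% and 8.14% in wild type and 20.2% and 18.5% in the labelled knockout, and at day 15 it was 26.1% and 26.2% against 13.9% and 14.3%. Members were tested together with all 16295 genes at 1 FPKM or more in at least 2 libraries, with limma on log2(FPKM + 1) and p-values adjusted over all of them. A gene is said to have risen or fallen only where its adjusted p was under 0.05. Log2 changes on this scale understate the change of low genes.

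Cell type markers bear on every comparison below. The streak and mesendoderm genes EOMES, MIXL1, GSC and MESP1 summed to 606.1 and 603.6 FPKM in wild type and 169.3 and 152.5 in the labelled knockout at day 3. The cardiomyocyte markers, of which all 8 reached 1 FPKM in wild type and 7 in the labelled knockout at day 7, summed there to 6418 and 6422 FPKM in wild type against 1195 and 1081, and at day 15 to 9313 and 10218 against 3856 and 3139. All 8 were lower in the labelled knockout at day 7. At day 15, 5 were lower and 1 higher, MYH6 (631.6 and 701.7 FPKM in wild type, 959.4 and 785.9 in the labelled knockout). MYL7 alone held 5961 and 6584 FPKM of the wild-type sums of day 15. TNNT2, a defining gene of cardiomyocytes, was thus present in both genotypes, at 810.2 and 852.0 FPKM in wild type and 237.3 and 181.7 in the labelled knockout at day 7. Other markers of the list were barely present in the labelled knockout at that day. MYH7 was at 31.1 and 29.3 FPKM in wild type against 0.551 and 0.635, and NPPA at 73.96 and 82.1 against 2.09 and 2.90. The cardiomyocyte label was therefore met there by only part of the list. Neural progenitor and neuron markers (10 measured and summed, 8 of them tested) summed to 379.2 and 372.6 FPKM in wild type against 578.9 and 576.3 in the labelled knockout at day 3. The sums were 262.7 and 266.8 against 482.2 and 470.3 at day 7, and 204.8 and 227.4 against 253.4 and 246.9 at day 15. At day 7, 6 of the 8 tested were higher in the labelled knockout and none lower. MAP2 was at 1.51 and 2.89 FPKM in wild type and 45.9 and 32.4 in the labelled knockout, and SOX2 at 20.98 and 21.2 against 153.2 and 157.3. SOX21 was at 0.595 and 0.877 against 35.7 and 38.3, and FEZF1 at 2.86 and 2.61 against 17.2 and 21.8. TUBB3 stood at 74.5 and 79.7 against 68.6 and 72.5, and DCX and STMN2 were under 2 FPKM in all 4 libraries. Neural crest markers (4 tested) summed to 12.6 and 12.5 FPKM against 54.0 and 47.7 at day 7, and to 20.6 and 19.9 against 67.1 and 56.9 at day 15. Smooth muscle markers summed to 962.5 and 992.5 FPKM in wild type against 170.1 and 149.5 in the labelled knockout at day 7. Of the 5 tested, 3 were lower there and 1 higher, MYLK (3.20 and 2.90 against 12.2 and 8.91). Endoderm markers summed to 220.98 and 237.8 against 74.02 and 77.1 at day 7. Pluripotency markers at day 15 summed to 99.7 and 118.6 against 423.2 and 375.6, with 1 of 3 tested higher. That was LIN28A, at 60.7 and 64.3 against 365.5 and 332.6. POU5F1 (23.4 and 36.7 against 39.1 and 27.5) and DPPA4 (15.6 and 17.6 against 18.6 and 15.5) overlapped. SOX1 and PAX6 were not analysed here. In whole cultures, fewer cells of a type and less RNA per cell cannot be told apart, and the part of these cell types in the members' changes was not tested.

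E proteins bind the E-box, CANNTG, so the sequence before the start of members that led the genotype comparisons is shown first. RefSeq (GRCh38.p14) held promoters for 55 of the 63 members, 86 start sites in all, and the 250 bases before each start were searched. CANNTG, which reads as CANNTG on the other strand too, stood in 54.7% of the members' windows and in 61.8% of all 35116 windows of that length. The narrower CAGCTG was in 15.1% of the members' windows against 14% of all, and CAGGTG or its complement CACCTG in 17.4% against 17.5%; both narrower forms are also CANNTG matches. A match is a description of letters, not a binding site. The members below led the falls of day 3 (EPHA2, SEMA3G, PLXNA2 and EPHB3) or turned direction between days (EFNA1 and EFNA3), and each has a single RefSeq start. Each window reads 5′ to 3′ on the gene's own strand and ends at the base before the start, with CANNTG matches in capitals.

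EPHA2: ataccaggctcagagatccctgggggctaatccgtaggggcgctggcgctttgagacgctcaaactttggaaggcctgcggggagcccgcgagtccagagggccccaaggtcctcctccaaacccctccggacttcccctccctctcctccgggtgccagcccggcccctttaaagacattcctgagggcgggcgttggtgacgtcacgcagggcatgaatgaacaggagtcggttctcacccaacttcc

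PLXNA2: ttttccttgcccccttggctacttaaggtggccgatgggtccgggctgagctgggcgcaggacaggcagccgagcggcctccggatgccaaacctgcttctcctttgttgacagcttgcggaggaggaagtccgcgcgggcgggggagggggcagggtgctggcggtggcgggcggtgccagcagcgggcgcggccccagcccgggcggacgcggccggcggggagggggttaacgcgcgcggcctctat

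SEMA3G: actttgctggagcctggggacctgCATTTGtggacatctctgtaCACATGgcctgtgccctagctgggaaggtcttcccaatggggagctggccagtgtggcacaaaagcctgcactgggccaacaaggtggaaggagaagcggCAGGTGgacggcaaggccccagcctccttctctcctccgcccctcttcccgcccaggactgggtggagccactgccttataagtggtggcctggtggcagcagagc

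EPHB3: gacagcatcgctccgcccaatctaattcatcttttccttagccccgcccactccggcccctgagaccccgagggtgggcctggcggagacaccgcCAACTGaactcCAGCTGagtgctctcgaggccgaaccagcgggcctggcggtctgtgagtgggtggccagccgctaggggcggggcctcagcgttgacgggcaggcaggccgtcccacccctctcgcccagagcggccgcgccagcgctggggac

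EFNA1: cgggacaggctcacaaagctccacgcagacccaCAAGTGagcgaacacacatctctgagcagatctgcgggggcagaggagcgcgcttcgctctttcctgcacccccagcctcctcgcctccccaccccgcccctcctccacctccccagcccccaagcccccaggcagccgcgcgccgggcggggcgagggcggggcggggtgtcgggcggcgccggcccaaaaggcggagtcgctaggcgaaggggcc

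EFNA3: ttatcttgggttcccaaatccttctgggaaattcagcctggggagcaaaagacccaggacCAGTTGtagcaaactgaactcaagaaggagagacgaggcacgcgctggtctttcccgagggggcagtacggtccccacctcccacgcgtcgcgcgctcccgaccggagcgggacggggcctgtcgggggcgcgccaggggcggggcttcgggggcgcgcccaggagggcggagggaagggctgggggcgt

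The EPHA2 window is chr1:16156070-16156319 and that of PLXNA2 chr1:208244385-208244634, both on the minus strand, and neither holds CANNTG. SEMA3G (chr3:52445104-52445353, minus strand) holds 3 matches, of which 1 is CAGGTG, and EPHB3 (chr3:184561535-184561784, plus strand) holds 2, of which 1 is CAGCTG. The ephrin genes EFNA1 (chr1:155127626-155127875) and EFNA3 (chr1:155078587-155078836) lie close together on the plus strand of chromosome 1 and hold 1 match each. So 2 of the leading falls of day 3 had no E-box in this window and 2 had several.

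Members were detected widely and unevenly. Of the 63, 50 were at 1 FPKM or more in all 12 libraries. NRP2 was the highest by mean over the 12 libraries (269.3 FPKM, from 66.3 to 746.5). The highest of the other families were PLXNB1 (mean 82.2 FPKM), EPHB4 (80.1), SEMA6A (76.6), EFNA1 (40.7), ROBO1 (39.8), UNC5B (31.4), SLIT3 (26.4) and NTN1 (7.51). By group means, 19 members were highest in wild type at day 7 and 16 in the labelled knockout at day 7, against 10 and 5 in wild type and labelled knockout at day 3, and 4 and 9 at day 15. Together the members held 0.364% and 0.355% of summed FPKM in wild type at day 7, and 0.163% and 0.175% at day 15. Of nuclear genes alone the shares were 0.398% and 0.386%, then 0.220% and 0.236%. In the labelled knockout the shares of summed FPKM were 0.336% and 0.307% at day 7, and 0.254% and 0.213% at day 15. NRP2 alone held 746.5 and 724.96 of the members' 2303.7 and 2270.4 FPKM in wild type at day 7. At day 15 it held 82.96 and 92.1 of 1110.9 and 1222.9.

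**Figure D1:**
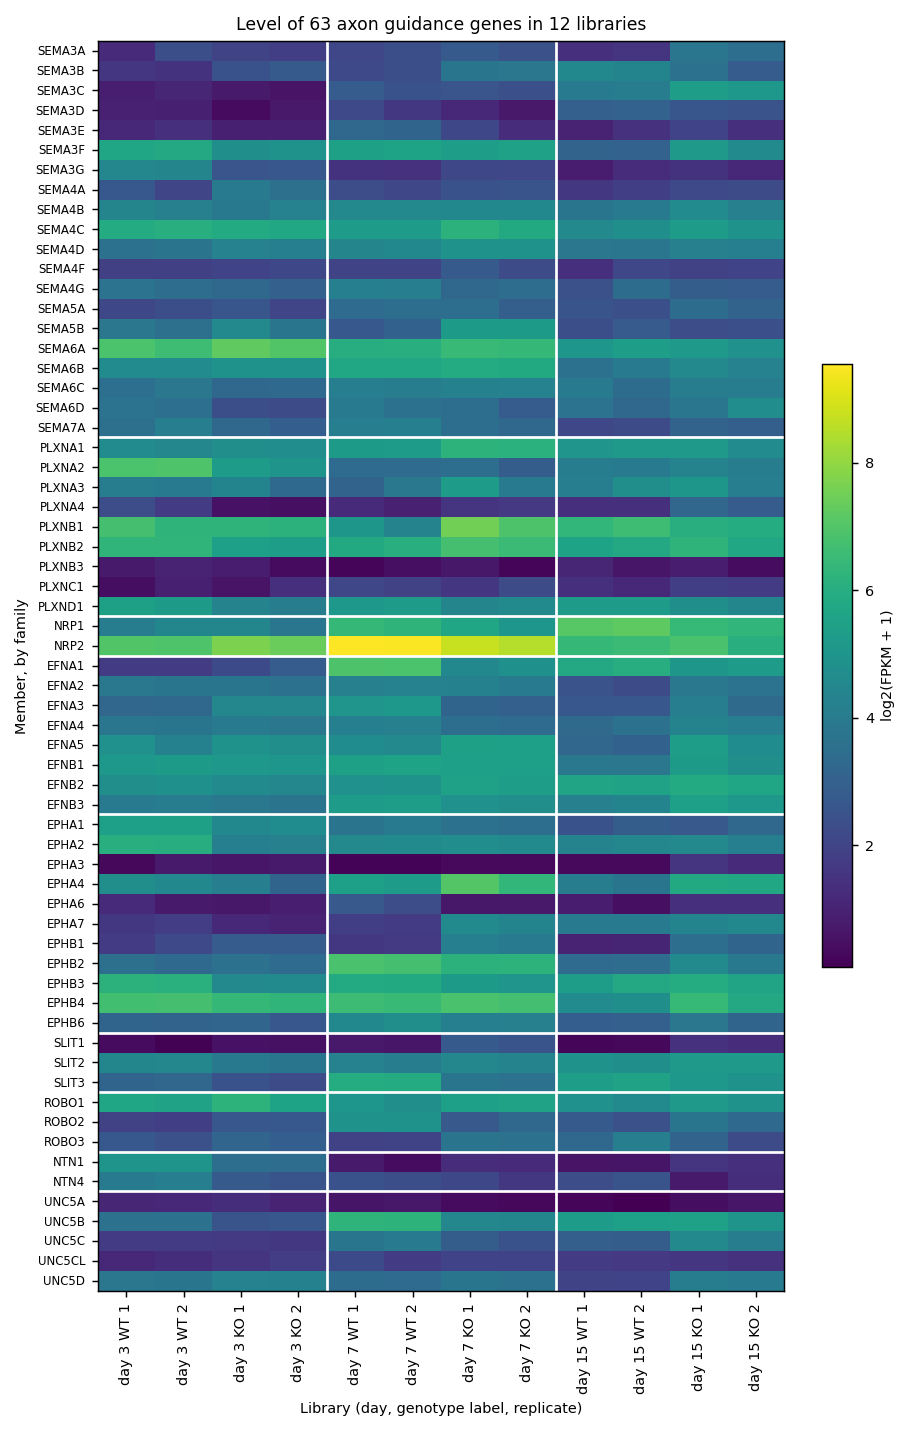
Level of each of the 63 members (rows, by family) in each of the 12 libraries (columns, by day, genotype label and replicate), as log2(FPKM + 1) on the colour scale; white lines part families and days. NRP2 in wild type at day 7 is the brightest pair of cells, and rows such as NTN1 and PLXNA2 are brighter at day 3 than later.

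The genotype comparison asks how the guidance genes differ between wild-type and E2A-/- labelled cells at each day. The members leaned down at day 3, were balanced at day 7 and leaned up at day 15. At day 3, 26 of 63 members passed the test, against a background of 23.6% of all genes tested: 8 were higher (12.7% of the members, background 9.51%) and 18 lower (28.6%, background 14.1%). Together these are 41.3% of the members. At day 7, 36 passed (57.1%, background 42%), 18 higher (28.6%, background 22.1%) and 18 lower (28.6%, background 19.9%). At day 15, 35 passed (55.6%, background 35.1%), 28 higher (44.4%, background 18.9%) and 7 lower (11.1%, background 16.2%). Without EPHA3, 27 were higher. These still hold SLIT1, which reached 1 FPKM only in labelled knockout libraries of days 7 and 15 and is also among the rises of day 7. The median log2 change of the members was -0.18 at day 3, -0.01 at day 7 and 0.44 at day 15, beside -0.01, 0.06 and 0.03 for all genes tested. Among the 51 members with a mean of at least 5 FPKM, 49%, 62.7% and 58.8% passed at the 3 days, beside 27.5%, 46.8% and 40.1% of the 10867 genes at that level. The median level was 13.7 FPKM over all 63 members and 10.2 over all genes tested. How closely the levels match within the part at 5 FPKM or more was not computed.

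In all, 55 members passed at 1 day or more, and 18 of these passed in opposite directions at different days. EPHB1 and SEMA4D were higher in the labelled knockout at all 3 days, and SLIT3 and PLXND1 were lower at all 3. How many of all genes tested did the same was not counted. As 23.6%, 42% and 35.1% of all genes passed at days 3, 7 and 15, these counts are not read as a trait of the members. Many calls ended when 1 library was left out, which leaves 1 library in a group. In some of these the log2 change hardly moved, as for UNC5D at day 3 (0.42 to 0.48). At day 3, 14 of the 26 held in each of the 4 fits that left out 1 library, and without wild-type replicate 2 there were 17 calls. At days 7 and 15, 22 of 36 and 21 of 35 held in each such fit. When libraries were scaled to their nuclear genes, the median of all genes moved from 0.06 to 0.22 at day 7 and the members' split there from 18 higher and 18 lower to 25 and 15; no called member changed sign.

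**Figure D2:**
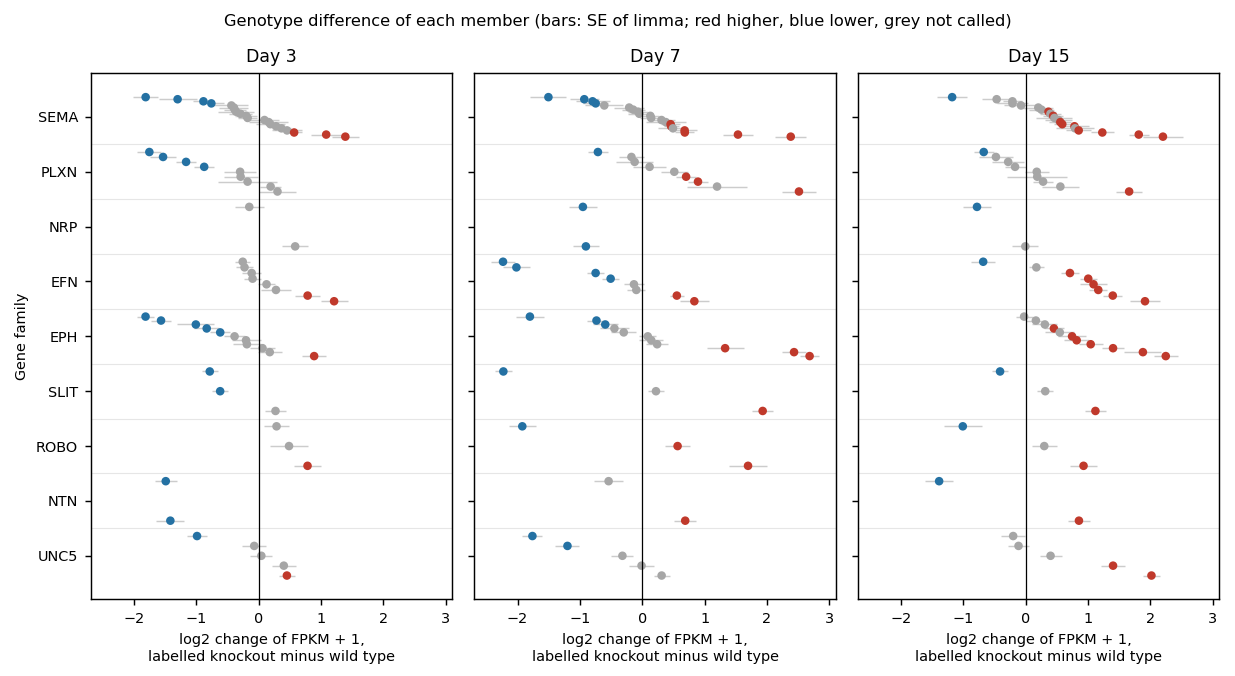
Log2 change of FPKM + 1, labelled knockout minus wild type, for the 63 members at days 3, 7 and 15, grouped by family and ordered by change within it; bars are standard errors of limma, red points passed the test as higher, blue points as lower, and grey points did not pass. Blue points prevail at day 3 (18 of 26 calls) and red points at day 15 (28 of 35 calls).

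Semaphorins, the largest family, had 3 rises and 4 falls among 20 genes at day 3 (15% and 20%, background 9.51% and 14.1%). There were 6 rises and 4 falls at day 7 (30% and 20%, background 22.1% and 19.9%), where the falls were at the background share. Day 15 gave 9 rises and 1 fall (45% and 5%, background 18.9% and 16.2%). The secreted class 3 semaphorins are given first. SEMA3G, a ligand that acts through NRP2, stood at 21.4 and 19.99 FPKM in wild type and 4.99 and 5.32 in the labelled knockout at day 3. Both labelled knockout libraries lay far below the wild-type pair (log2 change -1.82, SE 0.20, adjusted p = 0.000174), and by day 7 both genotypes were under 4 FPKM. SEMA3F, another NRP2 ligand, was at 50.7 and 54.3 FPKM in wild type and 26.7 and 29.1 in the labelled knockout at day 3 (log2 change -0.89), and at 7.67 and 7.402 FPKM in wild type and 35.2 and 23.8 in the labelled knockout at day 15. It was thus lower in the labelled knockout at the first day and higher at the last, where the wild type had dropped (log2 change 1.81, SE 0.16, adjusted p = 3.12e-05).

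SEMA3A, the founding repellent of the class, did not pass at days 3 and 7. At day 15 it was at 1.67 and 1.83 FPKM in wild type and 13.02 and 10.4 in the labelled knockout, with no overlap (log2 change 2.20, SE 0.32, adjusted p = 0.000512). SEMA3B was at 2.02 and 1.79 FPKM in wild type and 4.51 and 5.84 in the labelled knockout at day 3 (log2 change 1.08, SE 0.24, adjusted p = 0.00844) and at 3.56 and 4.08 FPKM in wild type and 12.7 and 13.2 in the labelled knockout at day 7 (log2 change 1.53, SE 0.24, adjusted p = 0.000588). At day 15 the order was turned, with 21.5 and 19.6 FPKM in wild type and 11.5 and 6.18 in the labelled knockout (log2 change -1.18, SE 0.24, adjusted p = 0.00348). SEMA3B was highest at day 15 in wild type and at day 7 in the labelled knockout. SEMA3E, which binds PLXND1 without a neuropilin, was at 8.85 and 7.896 FPKM in wild type and 3.396 and 1.47 in the labelled knockout at day 7 (log2 change -1.51, SE 0.29, adjusted p = 0.00207). SEMA3C, known for guiding cardiac neural crest into the outflow tract, was at 14.7 and 15.96 FPKM in wild type and 40.5 and 34.1 in the labelled knockout at day 15 (log2 change 1.23), and it did not pass before. SEMA3B lost its day 3 call without wild-type replicate 2 or labelled knockout replicate 2 (log2 0.92 to 1.24, adjusted p up to 0.0609). At day 15 the change of SEMA3B ranged from -1.58 to -0.78 over those fits and held.

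Among the membrane-bound semaphorins, SEMA4A was at 5.402 and 3.23 FPKM in wild type and 14.5 and 10.98 in the labelled knockout at day 3, where the groups did not overlap (log2 change 1.39, SE 0.22, adjusted p = 0.00163). SEMA4D, a ligand of PLXNB1, was at 11.2 and 12.1 FPKM in wild type and 18.5 and 16.997 in the labelled knockout at day 3 (log2 change 0.57, SE 0.12, adjusted p = 0.00712), at 19.8 and 21.96 FPKM in wild type and 28.8 and 29.5 in the labelled knockout at day 7 and at 13.2 and 13.04 FPKM in wild type and 17.3 and 17.1 in the labelled knockout at day 15. It was modestly higher in the labelled knockout each time (log2 changes 0.46 and 0.36 at days 7 and 15). SEMA5B was at 5.47 and 7.21 FPKM in wild type and 36.97 and 36.9 in the labelled knockout at day 7, with no overlap (log2 change 2.38, SE 0.25, adjusted p = 5.29e-05). At day 15 it was at 4.14 and 5.996 FPKM in wild type and 4.02 and 4.33 in the labelled knockout, which did not pass. SEMA6D, a ligand of A-type plexins, was at 11.9 and 10.7 FPKM in wild type and 4.09 and 3.89 in the labelled knockout at day 3 (log2 change -1.30, SE 0.30, adjusted p = 0.0114). SEMA6A, the highest semaphorin, was at 115.6 and 96.7 FPKM in wild type and 148.5 and 124.96 in the labelled knockout at day 3 without passing, and its day 7 change was 0.45. SEMA4D lost its day 3 call without wild-type replicate 1 or labelled knockout replicate 1 (log2 0.51 to 0.63, adjusted p up to 0.0614). SEMA6D lost its day 3 call without wild-type replicate 1 or labelled knockout replicate 1 or labelled knockout replicate 2 (log2 -1.37 to -1.23, adjusted p up to 0.0688). SEMA4D lost its day 15 call in each of the 4 fits that left out 1 library (log2 0.36 to 0.37, adjusted p up to 0.115).

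The other semaphorin calls were SEMA7A -0.76 at day 3, SEMA3D -0.93, SEMA7A -0.75, SEMA4G -0.80, SEMA3G 0.68 and SEMA4C 0.68 at day 7, and SEMA7A 0.85, SEMA5A 0.78, SEMA6B 0.59, SEMA4B 0.55 and SEMA4C 0.44 at day 15, all as log2 changes. Each of these 11 calls ended without at least 1 of the 4 libraries compared, as did those of SEMA4D and SEMA6A at day 7 (adjusted p up to 0.164, 0.16 and 0.254 at the 3 days). The SEMA4G call of day 7 also ended when libraries were scaled to nuclear genes. SEMA4F and SEMA6C passed at no day.

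Plexins, the semaphorin receptors, gave 4 falls and no rise among 9 at day 3 (44.4% lower, background 14.1%). They gave 3 rises and 1 fall at day 7 (33.3% and 11.1%, background 22.1% and 19.9%). At day 15 there was 1 of each (11.1%, background 18.9% and 16.2%). PLXNA2 was at 114.3 and 121.2 FPKM in wild type and 37.9 and 30.7 in the labelled knockout at day 3 (log2 change -1.76, SE 0.19, adjusted p = 0.000203). Both genotypes were far lower afterwards, between 6.44 and 19.1 FPKM, and did not differ past the threshold. PLXND1, the receptor of SEMA3E in vessels, was at 43.2 and 37.02 FPKM in wild type and 18.96 and 15.7 in the labelled knockout at day 3 (log2 change -1.17, SE 0.16, adjusted p = 0.000652). At day 7 it was at 34.5 and 37.6 FPKM in wild type and 19.8 and 23.5 in the labelled knockout (log2 change -0.71), and at day 15 at 37.9 and 37.5 FPKM in wild type and 26.5 and 20.4 in the labelled knockout (log2 change -0.67, SE 0.16, adjusted p = 0.00788). The wild-type level of PLXND1 stayed between 34.5 and 43.2 FPKM throughout, and the labelled knockout was below it in all 6 libraries.

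PLXNB1, the receptor of SEMA4D, was the highest plexin and passed at day 7 alone. It was at 33.4 and 18.9 FPKM in wild type and 186.3 and 118.4 in the labelled knockout at day 7 (log2 change 2.51, SE 0.27, adjusted p = 6.81e-05), whereas at day 3 it was at 106.3 and 74.3 FPKM in wild type and 74.7 and 70.3 in the labelled knockout, with ranges that overlapped. At day 15 it was at 80.3 and 97.1 FPKM in wild type and 66.03 and 60.3 in the labelled knockout, which did not pass (log2 change -0.48). PLXNA4, a partner of neuropilins for SEMA3A, was at 3.97 and 2.45 FPKM in wild type and 0.469 and 0.389 in the labelled knockout at day 3 (log2 change -1.54) and at 1.65 and 1.56 FPKM in wild type and 8.35 and 6.22 in the labelled knockout at day 15 (log2 change 1.66, SE 0.21, adjusted p = 0.000285). It went from below wild type to above it. PLXNB2 went the same way by day 7, with log2 changes of -0.88 at day 3 and 0.70 at day 7, and PLXNA1 was higher at day 7 (log2 change 0.89). PLXNB2 lost its day 7 call without wild-type replicate 1 (log2 0.60 to 0.80, adjusted p up to 0.0511). PLXNA3, PLXNB3 and PLXNC1 passed at no day. PLXNA3 replicates lay far apart, at 39.1 and 15.4 FPKM in the labelled knockout at day 7.

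Neither neuropilin passed at day 3, NRP2 was lower in the labelled knockout at day 7, and NRP1 was lower at days 7 and 15. NRP2 was at 123.5 and 121.9 FPKM in wild type and 204.6 and 166.04 in the labelled knockout at day 3, which did not pass (log2 change 0.58) but did under both rescalings of the libraries. At day 7 it was at 746.5 and 724.96 FPKM in wild type and 434.2 and 354.8 in the labelled knockout, with no overlap (log2 change -0.90), and at day 15 at 82.96 and 92.1 FPKM in wild type and 113.9 and 66.3 in the labelled knockout, where the groups overlapped. NRP1 was at 82.04 and 74.5 FPKM in wild type and 49.1 and 32.4 in the labelled knockout at day 7 (log2 change -0.95, SE 0.23, adjusted p = 0.00742) and at 134.7 and 147.5 FPKM in wild type and 85.3 and 77.9 in the labelled knockout at day 15 (log2 change -0.78, SE 0.23, adjusted p = 0.0232). Its wild-type level rose from 16.2 and 20.6 FPKM at day 3. NRP1 lost its day 7 call without labelled knockout replicate 2 (log2 -1.24 to -0.66, adjusted p up to 0.0654). NRP1 lost its day 15 call in each of the 4 fits that left out 1 library (log2 -0.85 to -0.72, adjusted p up to 0.11). The endothelial markers, cells in which both neuropilins are known, summed to 158.9 and 149.6 FPKM in wild type against 91.2 and 82.3 in the labelled knockout at day 7. At day 15 they summed to 88.2 and 89.3 against 102.4 and 86.1, with 4 of 7 higher and 1 lower in the labelled knockout. Their part in the neuropilin values was not tested.

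**Figure D3:**
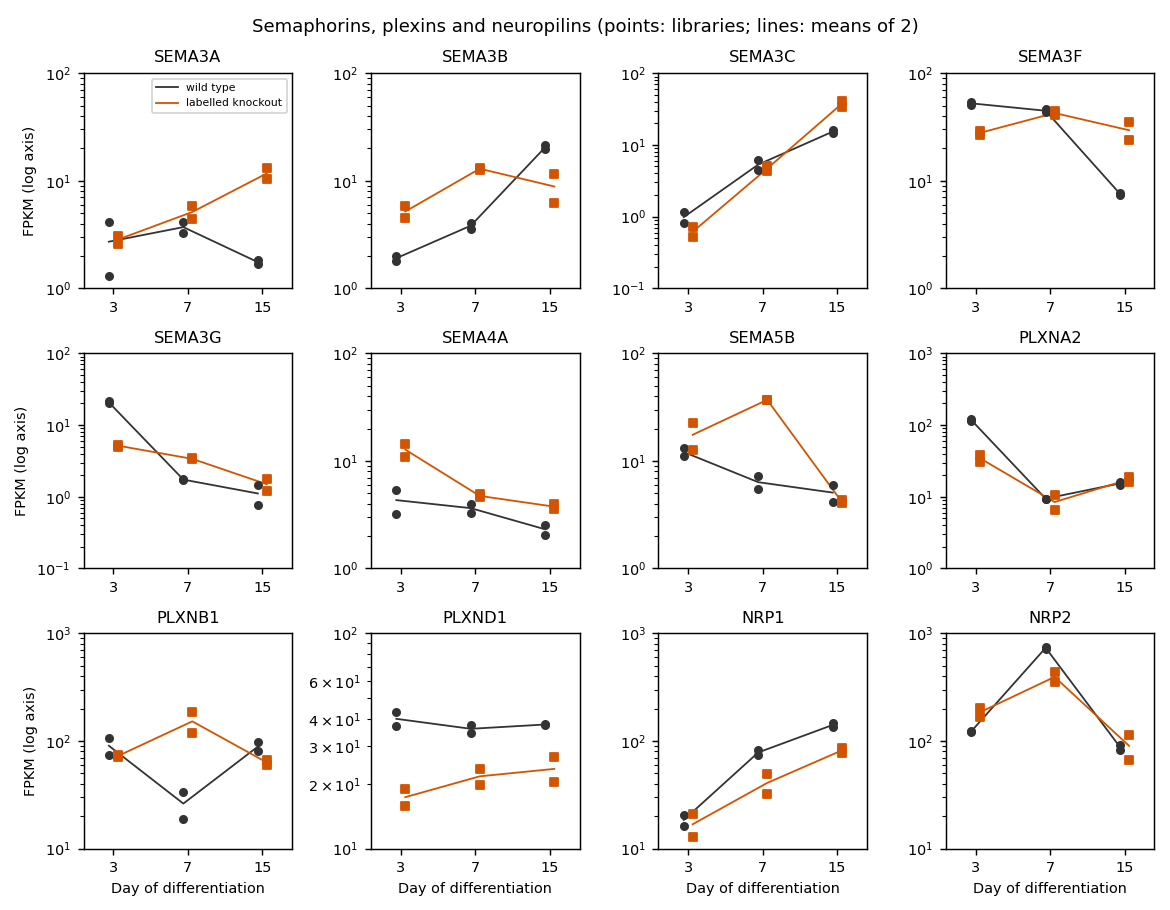
FPKM on a log axis against day of differentiation for 12 semaphorins, plexins and neuropilins; black circles are wild-type libraries, orange squares labelled knockout libraries, and lines join means of 2. SEMA3G and PLXNA2 are apart at day 3, SEMA5B and PLXNB1 at day 7, and SEMA3A and SEMA3F at day 15, while PLXND1 stays lower in the labelled knockout at all 3 days.

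Ephrins leaned different ways at different days. At day 3, 2 of 8 were higher (25%, background 9.51%) and none lower. At day 7, 2 were higher and 4 lower (25% and 50%, background 22.1% and 19.9%). At day 15, 6 were higher and 1 lower (75% and 12.5%, background 18.9% and 16.2%). EFNA1, a ligand of EPHA2, was at 2.34 and 2.38 FPKM in wild type and 3.66 and 6.17 in the labelled knockout at day 3, at 119.2 and 116.8 FPKM in wild type and 21.7 and 27.2 in the labelled knockout at day 7 and at 54.3 and 62.8 FPKM in wild type and 33.4 and 38.7 in the labelled knockout at day 15. The wild-type pair was far above the labelled knockout pair at day 7 (log2 change -2.23, SE 0.20, adjusted p = 2.09e-05), and the gap was smaller at day 15 (log2 change -0.68, SE 0.20, adjusted p = 0.0208). The day 3 difference went the other way, at low levels (log2 change 0.78). EFNA3 was at 8.37 and 8.87 FPKM in wild type and 21.3 and 21.1 in the labelled knockout at day 3 (log2 change 1.21, SE 0.22, adjusted p = 0.0031), at 31.5 and 34.5 FPKM in wild type and 7.88 and 6.91 in the labelled knockout at day 7 (log2 change -2.02, SE 0.22, adjusted p = 6.52e-05) and at 5.27 and 5.36 FPKM in wild type and 16.7 and 9.17 in the labelled knockout at day 15. It was thus above wild type, below it and above it again (log2 change 1.09 at day 15, 0.69 to 1.49 when 1 library was left out). EFNA1 lost its day 3 call without wild-type replicate 1 or wild-type replicate 2 or labelled knockout replicate 2 (log2 0.47 to 1.09, adjusted p up to 0.11). EFNA1 lost its day 15 call without wild-type replicate 2 or labelled knockout replicate 1 (log2 -0.79 to -0.58, adjusted p up to 0.12).

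EFNA5 was at 8.17 and 7.24 FPKM in wild type and 40.6 and 24.7 in the labelled knockout at day 15 (log2 change 1.91, SE 0.24, adjusted p = 0.000223), after a smaller difference at day 7 (log2 change 0.84). In wild type EFNA5 had been at 24.8 and 22.1 FPKM at day 7 and then fell (log2 change -1.49), while the same step in the labelled knockout did not pass (log2 change -0.41). EFNA2 was at 4.68 and 3.897 FPKM in wild type and 13.8 and 12.03 in the labelled knockout at day 15 (log2 change 1.40). EFNB1 was at 13.9 and 13.3 FPKM in wild type and 36.98 and 27.02 in the labelled knockout at that day (log2 change 1.16). These ligands too fell in wild type from day 7 to day 15 (log2 changes -1.84 and -1.65) without passing in the labelled knockout (log2 changes -0.31 and -0.39). EFNB3, at log2 changes of -0.51 at day 7 and 1.00 at day 15, and EFNA4, at -0.75 and 0.71, passed in opposite directions. EFNB2, the arterial ligand of EPHB4, passed at day 7 alone, where it was higher (log2 change 0.55). The day 7 calls of EFNA5 and EFNB3 ended without at least 1 library (adjusted p up to 0.0912), and that of EFNB3 also with scaling to nuclear genes. EFNA3 and its neighbour EFNA4 (chr1:155063731-155069553, plus strand) share exon bases with the read-through gene AL691442.1 on the same strand in GENCODE release 29, 853 and 189 bases, so their reads could be divided between these genes.

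Eph receptors had 1 rise and 5 falls among 11 at day 3 (9.09% and 45.5%, background 9.51% and 14.1%). They were split at day 7 (3 and 3, 27.3% each, background 22.1% and 19.9%). At day 15 they had 7 rises (63.6%, background 18.9%) and no fall. EPHA2 had the smallest adjusted p among the falls of day 3, at 63.9 and 62.8 FPKM in wild type and 16.98 and 17.6 in the labelled knockout. The labelled knockout libraries sat far below the wild-type pair (log2 change -1.82, SE 0.14, adjusted p = 2.29e-05), and at days 7 and 15 both genotypes were between 17.1 and 25.5 FPKM. EPHB3 was at 70.2 and 67.6 FPKM in wild type and 22.4 and 22.8 in the labelled knockout at day 3 (log2 change -1.57, SE 0.16, adjusted p = 0.000113) and its log2 change at day 7 was -0.73. EPHA1 was also lower at day 3 (log2 change -0.84). EPHA1 lost its day 3 call without wild-type replicate 1 or wild-type replicate 2 or labelled knockout replicate 1 (log2 -0.93 to -0.75, adjusted p up to 0.0851).

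EPHA7 and EPHA4, receptors best known from the nervous system, changed direction after day 3. EPHA7 was at 2.08 and 2.48 FPKM in wild type and 1.198 and 1.07 in the labelled knockout at day 3, at 2.63 and 2.38 FPKM in wild type and 23.6 and 19.5 in the labelled knockout at day 7 (log2 change 2.68, SE 0.16, adjusted p = 1.95e-06) and at 14.3 and 15.1 FPKM in wild type and 19.5 and 21.4 in the labelled knockout at day 15. Its labelled knockout libraries lay between 19.5 and 23.6 FPKM at both later days (log2 changes -0.62 and 0.45 at days 3 and 15). EPHA4, which binds ephrins of both classes, was at 26.3 and 21.6 FPKM in wild type and 16.4 and 7.74 in the labelled knockout at day 3 (log2 change -1.01), at 41.8 and 38.02 FPKM in wild type and 129.3 and 79.9 in the labelled knockout at day 7 (log2 change 1.33, SE 0.30, adjusted p = 0.00488) and at 15.8 and 12.7 FPKM in wild type and 56.2 and 53.5 in the labelled knockout at day 15 (log2 change 1.88, SE 0.30, adjusted p = 0.000873). EPHA7 lost its day 3 call without wild-type replicate 2 or labelled knockout replicate 1 or labelled knockout replicate 2 (log2 -0.71 to -0.53, adjusted p up to 0.119). EPHA4 lost its day 3 call without wild-type replicate 1 or wild-type replicate 2 or labelled knockout replicate 2 (log2 -1.51 to -0.51, adjusted p up to 0.215). EPHA7 lost its day 15 call in each of the 4 fits that left out 1 library (log2 0.39 to 0.52, adjusted p up to 0.161). The EPHA4 call of day 3 also ended with scaling to nuclear genes, and the EPHA7 call of day 15 with median-ratio scaling. Of the 8 neural markers tested, 6 were higher in the labelled knockout at day 7, where both receptors were higher. At day 3, 6 of these markers were higher and 2 lower, while both receptors were lower. At day 15, 4 of the markers and both receptors were higher. The part of these markers in the receptor values was not tested.

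EPHB1 was above wild type at every day: at 2.35 and 3.48 FPKM in wild type and 6.17 and 6.18 in the labelled knockout at day 3 (log2 change 0.89, SE 0.19, adjusted p = 0.00841), at 2.05 and 2.22 FPKM in wild type and 17.2 and 14.8 in the labelled knockout at day 7 (log2 change 2.43, SE 0.19, adjusted p = 1.20e-05) and at 1.07 and 1.12 FPKM in wild type and 10.3 and 7.74 in the labelled knockout at day 15 (log2 change 2.25, SE 0.19, adjusted p = 2.66e-05). No labelled knockout library of EPHB1 overlapped a wild-type library of the same day. EPHB4, the venous receptor of EFNB2, was at 23.96 and 26.7 FPKM in wild type and 85.9 and 54.5 in the labelled knockout at day 15 (log2 change 1.40) and did not pass before. EPHB2 was lower at day 7 (log2 change -0.59) and higher at day 15 (log2 change 0.82), as was EPHA6 (log2 change -1.80 and 0.74). EPHA3 was at 0.271 and 0.248 FPKM in wild type and 1.82 and 1.38 in the labelled knockout at day 15 (log2 change 1.04), and EPHB6 passed at no day. EPHB1 lost its day 3 call without wild-type replicate 1 (log2 0.68 to 1.10, adjusted p up to 0.0797). The calls of EPHB2 at both days and of EPHA6 at day 15 ended without at least 1 library (adjusted p up to 0.143, 0.0586 and 0.153), and that of EPHB2 at day 7 also with scaling to nuclear genes.

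SLIT ligands and ROBO receptors changed in both directions. SLIT3 was lower in the labelled knockout at all 3 days, at 7.81 and 8.18 FPKM in wild type and 4.52 and 3.92 in the labelled knockout at day 3 (log2 change -0.79), at 60.2 and 58.7 FPKM in wild type and 12.5 and 11.4 in the labelled knockout at day 7 (log2 change -2.23, SE 0.13, adjusted p = 1.92e-06) and at 40.7 and 45.2 FPKM in wild type and 34.3 and 29.8 in the labelled knockout at day 15 (log2 change -0.41, SE 0.13, adjusted p = 0.0319). The gap was widest at day 7 and narrow at day 15. SLIT1 was at 0.683 and 0.601 FPKM in wild type and 5.78 and 4.77 in the labelled knockout at day 7 (log2 change 1.93, SE 0.17, adjusted p = 2.19e-05), and reached 1 FPKM only in the labelled knockout libraries of days 7 and 15, so its rises there were in part a condition of entry, as for EPHA3. SLIT2 was lower at day 3 (log2 change -0.62) and did not pass later. SLIT2 lost its day 3 call without wild-type replicate 2 (log2 -0.69 to -0.55, adjusted p up to 0.052). SLIT3 lost its day 15 call without wild-type replicate 1 or wild-type replicate 2 or labelled knockout replicate 2 (log2 -0.51 to -0.31, adjusted p up to 0.163). That day 15 call of SLIT3 also ended when only the 4 libraries compared were fitted (adjusted p = 0.132).

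ROBO2, a main SLIT receptor, was at 2.85 and 2.59 FPKM in wild type and 5.31 and 5.47 in the labelled knockout at day 3 (log2 change 0.78, SE 0.22, adjusted p = 0.026). At day 7 it was at 28.99 and 29.7 FPKM in wild type and 5.56 and 8.74 in the labelled knockout (log2 change -1.92, SE 0.22, adjusted p = 9.12e-05), and at day 15 at 5.81 and 4.43 FPKM in wild type and 12.4 and 8.92 in the labelled knockout (log2 change 0.93). The wild-type libraries of day 7 were the highest of the 12. ROBO3, known from commissural axons, was at 2.78 and 3.11 FPKM in wild type and 12.2 and 11.4 in the labelled knockout at day 7 (log2 change 1.70, SE 0.30, adjusted p = 0.00143) and at 8.56 and 16.6 FPKM in wild type and 7.52 and 3.88 in the labelled knockout at day 15 (log2 change -1.01, SE 0.30, adjusted p = 0.0256), where replicates differed widely in both genotypes. ROBO1, the highest of the family, was at 49.01 and 46.02 FPKM in wild type and 71.9 and 46.8 in the labelled knockout at day 3 and was higher at day 7 alone (log2 change 0.57). ROBO2 lost its day 3 call in each of the 4 fits that left out 1 library (log2 0.73 to 0.83, adjusted p up to 0.123). ROBO3 lost its day 15 call without wild-type replicate 2 or labelled knockout replicate 2 (log2 -1.45 to -0.57, adjusted p up to 0.205). ROBO2 lost its day 15 call without wild-type replicate 2 or labelled knockout replicate 1 (log2 0.71 to 1.15, adjusted p up to 0.0645). With only the 4 libraries compared, the ROBO3 call of day 15 ended (adjusted p = 0.0816). ROBO1 lost its day 7 call in each of the 4 fits that left out 1 library (log2 0.43 to 0.70, adjusted p up to 0.228). That call also ended with median-ratio scaling.

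Both netrins were lower at day 3. NTN1 was at 30.6 and 30.6 FPKM in wild type and 10.3 and 10.2 in the labelled knockout (log2 change -1.49, SE 0.17, adjusted p = 0.000266) and NTN4 at 15.3 and 16.4 FPKM in wild type and 5.74 and 4.88 in the labelled knockout (log2 change -1.42, SE 0.23, adjusted p = 0.00163). Replicates of NTN1 agreed closely there, and later NTN1 was under 2 FPKM in every library, slightly higher in the labelled knockout (log2 changes 0.69 and 0.85 at days 7 and 15). NTN1 lost its day 7 call without wild-type replicate 2 (log2 0.50 to 0.88, adjusted p up to 0.0933). NTN4, a netrin that binds laminin, was again lower at day 15, at 4.06 and 4.77 FPKM in wild type and 0.695 and 1.504 in the labelled knockout (log2 change -1.39). The streak and mesendoderm markers moved in the same direction at day 3, 3 of the 4 being lower, and their part in the netrin values was not tested.

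Among the UNC5 receptors, UNC5B, which is known from vessels, was at 74.04 and 73.3 FPKM in wild type and 21.2 and 20.8 in the labelled knockout at day 7 (log2 change -1.76, SE 0.16, adjusted p = 2.59e-05) after a smaller difference at day 3 (log2 change -0.99). By day 15 it was at 38.1 and 41.8 FPKM in wild type and 44.4 and 30.3 in the labelled knockout, and the groups overlapped. UNC5C was at 12.8 and 14.6 FPKM in wild type and 6.32 and 4.55 in the labelled knockout at day 7 (log2 change -1.20, SE 0.19, adjusted p = 0.000756) and at 6.83 and 6.35 FPKM in wild type and 22.3 and 16.2 in the labelled knockout at day 15 (log2 change 1.40, SE 0.19, adjusted p = 0.000411), which turned the order. UNC5D was at 13.3 and 12.7 FPKM in wild type and 18.5 and 17.8 in the labelled knockout at day 3 (log2 change 0.45, SE 0.13, adjusted p = 0.0293) and at 3.102 and 3.005 FPKM in wild type and 16.1 and 14.7 in the labelled knockout at day 15 (log2 change 2.02, SE 0.13, adjusted p = 4.42e-06). In the labelled knockout UNC5D lay between 11.7 and 18.5 FPKM over all 6 libraries. UNC5D lost its day 3 call in each of the 4 fits that left out 1 library (log2 0.42 to 0.48, adjusted p up to 0.149). UNC5A and UNC5CL passed at no day.

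**Figure D4:**
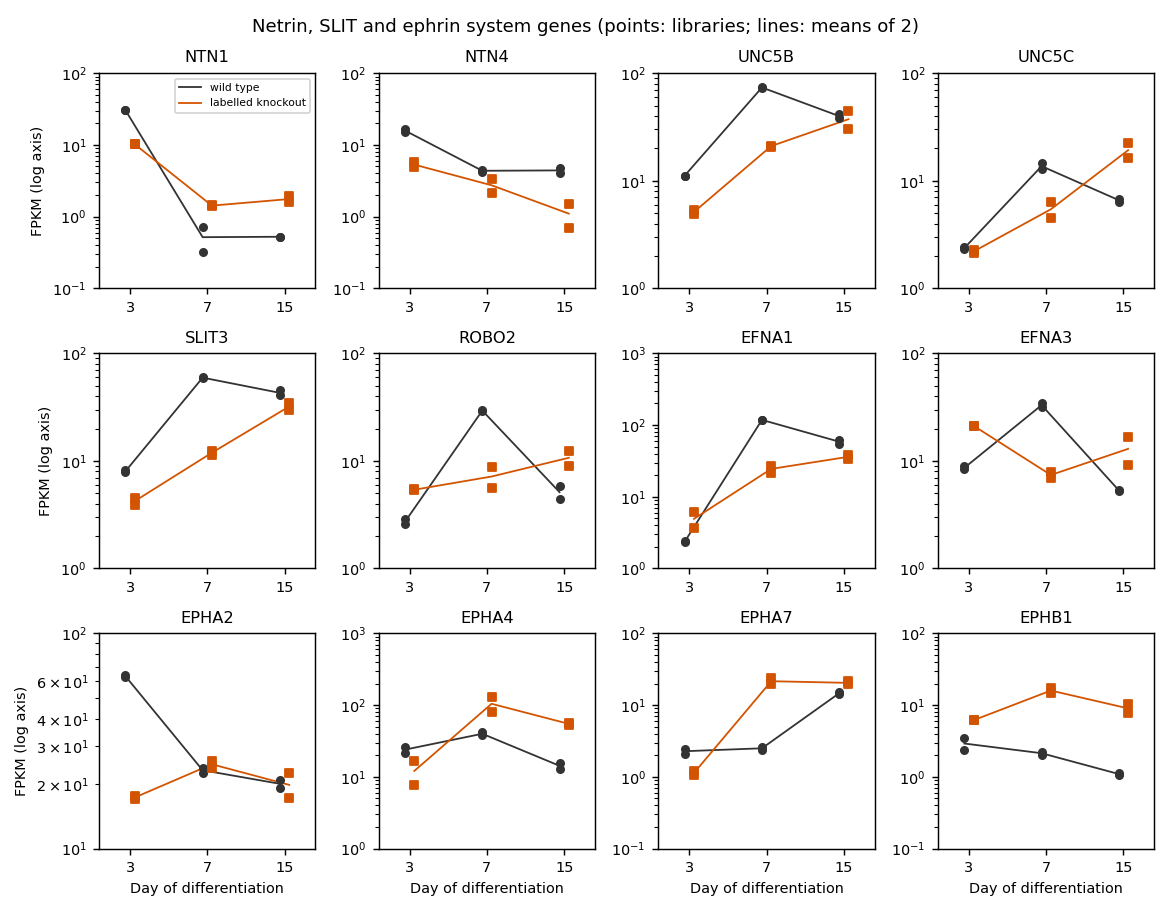
FPKM on a log axis against day of differentiation for 12 ephrins, Eph receptors, SLIT, ROBO, netrin and UNC5 genes; black circles are wild-type libraries, orange squares labelled knockout libraries, and lines join means of 2. EFNA1, SLIT3 and ROBO2 have wild-type values at day 7 well above the labelled knockout, whereas EPHA7 and EPHB1 have the opposite order.

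In wild type, the step from day 3 to day 7 changed 38 members (60.3%, background 43.7%), 24 higher (background 21.1%) and 14 lower (background 22.6%). UNC5A, among the falls of this step in both genotypes, reached 1 FPKM only in day 3 libraries, so those falls were in part a condition of entry. EFNA1 had the largest rise among the members named, from 2.34 and 2.38 FPKM at day 3 to 119.2 and 116.8 at day 7 (log2 change 5.15, SE 0.20, adjusted p = 1.70e-08). EPHB2 rose from 11.1 and 9.02 FPKM at day 3 to 111.9 and 106.8 at day 7 (log2 change 3.33, SE 0.20, adjusted p = 5.35e-07), ROBO2 rose from the levels given above (log2 change 3.03), and so did SLIT3 (log2 change 2.75). The 4 largest falls were those of NTN1, from 30.6 and 30.6 FPKM at day 3 to 0.712 and 0.321 at day 7 (log2 change -4.39, SE 0.17, adjusted p = 2.22e-08), PLXNA2 (log2 change -3.51), SEMA3G (log2 change -2.99) and PLXNB1 (log2 change -1.78). The genes named here were picked by size of change, at 5 FPKM or more in the higher group. EPHB4, the highest Eph receptor, was at 101.5 and 107.3 FPKM at day 3 and 93.98 and 90.5 at day 7.

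From day 7 to day 15 in wild type, 43 members passed (68.3%, background 52.3%), 10 higher (background 25.5%) and 33 lower (background 26.8%). EPHB2 and NRP2 fell most, EPHB2 to 9.53 and 10.2 FPKM (log2 change -3.35) and NRP2 from 746.5 and 724.96 FPKM at day 7 to 82.96 and 92.1 at day 15 (log2 change -3.06, SE 0.21, adjusted p = 2.68e-06). EFNA3 (log2 change -2.43) and SEMA3F (log2 change -2.42) followed. The largest rises were those of EPHA7 (log2 change 2.16), SEMA3B (log2 change 2.16), PLXNB1 (log2 change 1.77) and ROBO3 (log2 change 1.72). The share of mitochondrially encoded transcripts rose over the same step from at most 8.55% to at least 26.1%, and with libraries scaled to nuclear genes the median of all genes moved from 0.01 to 0.17.

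In the labelled knockout, 40 members passed from day 3 to day 7 (63.5%, background 28.6%), 30 higher (background 17.3%) and 10 lower (background 11.4%). EPHA7 rose from 1.198 and 1.07 FPKM at day 3 to 23.6 and 19.5 at day 7 (log2 change 3.40, SE 0.16, adjusted p = 1.82e-07) and EPHA4 from 16.4 and 7.74 FPKM at day 3 to 129.3 and 79.9 at day 7 (log2 change 3.06, SE 0.30, adjusted p = 3.59e-05); EPHB2 (log2 change 2.67) and EFNA1 (log2 change 2.13) were next. The largest falls were those of NTN1 (log2 change -2.21), PLXNA2 (log2 change -1.93), EFNA3 (log2 change -1.41) and SEMA4A (log2 change -1.25). EFNA3 therefore fell in the labelled knockout over a step in which it rose in wild type (log2 change 1.82).

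From day 7 to day 15 in the labelled knockout, 36 members passed (57.1%, background 28.4%), 17 higher (background 13.3%) and 19 lower (background 15.1%). This count depended on single libraries and on the fit: it was 22 without labelled knockout replicate 1 of day 7 and 21 when only the 4 libraries compared were fitted. SEMA3C rose from 5.02 and 4.33 FPKM at day 7 to 40.5 and 34.1 at day 15 (log2 change 2.75, SE 0.19, adjusted p = 7.09e-06). Among members at 5 FPKM or more in the higher group, UNC5C (log2 change 1.65), PLXNA4 (log2 change 1.43) and SLIT3 (log2 change 1.35) were next. SEMA5B fell from 36.97 and 36.9 FPKM at day 7 to 4.02 and 4.33 at day 15 (log2 change -2.87, SE 0.25, adjusted p = 2.92e-05), ahead of NRP2 (log2 change -2.16), EPHB2 (log2 change -1.93) and SEMA6B (log2 change -1.46).

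**Figure D5:**
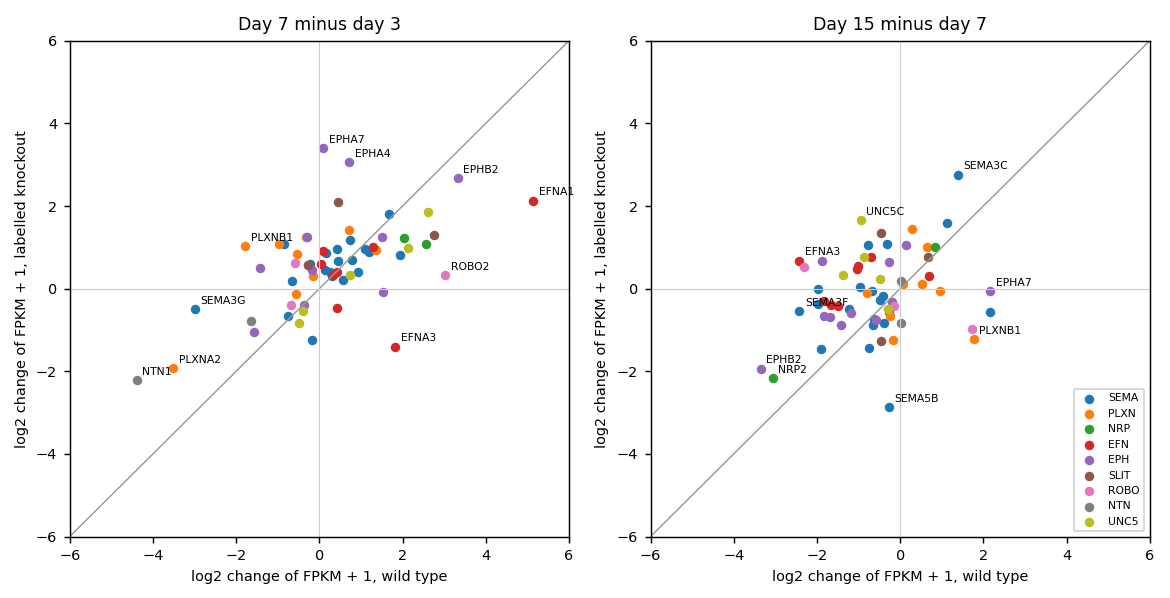
Log2 change of FPKM + 1 of each member between neighbouring days, in wild type (horizontal axis) and in the labelled knockout (vertical axis), coloured by family; the diagonal marks equal change. EPHA7 and EPHA4 lie above the diagonal and EFNA1, EFNA3 and ROBO2 below it from day 3 to day 7, and EPHA7 and PLXNB1 lie below it from day 7 to day 15.

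Whether the genotype difference itself moved between days was tested directly. From day 3 to day 7 it moved in 27 members (42.9%, background 20.2%), upward in 17 (background 11.3%) and downward in 10 (background 8.9%). From day 7 to day 15 it moved in 36 (57.1%, background 31.7%), upward in 28 (background 16.6%) and downward in 8 (background 15.2%), and 7 of the 8 ephrins were among those that moved upward. With scaling to nuclear genes the latter split was 22 upward and 11 downward, while the median of all genes moved from -0.01 to -0.17. Both tests share the day 7 libraries, so they are not separate evidence.

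Other genes of these pathways, from a list of 68 (63 tested) that holds further ligands, receptors and intracellular relays, gave 11 rises and 12 falls at day 3 (background 9.51% and 14.1%). Day 7 gave 15 rises and 14 falls (background 22.1% and 19.9%), and day 15 gave 17 rises and 10 falls (background 18.9% and 16.2%). The list's median log2 changes were 0.09, 0.12 and 0.15. Named are the 3 of each direction with the smallest adjusted p at 5 FPKM or more in the higher group, which need not have the largest changes. At day 3 these rises were DPYSL3 (80.9 and 73.9 FPKM in wild type, 280.3 and 255.9 in the labelled knockout, log2 change 1.78), RGMA (11.1 and 12.5 FPKM in wild type, 49.8 and 44.7 in the labelled knockout, log2 change 1.92) and DPYSL5 (3.55 and 4.04 FPKM in wild type, 15.5 and 10.8 in the labelled knockout, log2 change 1.54). DPYSL proteins carry semaphorin signals to the cytoskeleton, and RGMA is a ligand of the netrin receptor relative NEO1. The falls of day 3 so named were CXCR4 (55.1 and 57.2 FPKM in wild type, 14.2 and 12.5 in the labelled knockout, log2 change -1.99), a chemokine receptor, FLRT3 (14.5 and 14.8 FPKM in wild type, 3.402 and 2.997 in the labelled knockout, log2 change -1.90), a ligand of UNC5 receptors, and CFL1 (674.9 and 720.4 FPKM in wild type, 350.3 and 372.1 in the labelled knockout, log2 change -0.95), an actin-severing protein.

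At day 7 the rises with the smallest adjusted p were BOC (12.6 and 15.05 FPKM in wild type, 128.1 and 134.6 in the labelled knockout, log2 change 3.16), RGMA (7.79 and 9.81 FPKM in wild type, 40.5 and 41.7 in the labelled knockout, log2 change 2.11) and CDON (20.8 and 17.9 FPKM in wild type, 86.1 and 63.01 in the labelled knockout, log2 change 1.88). BOC and CDON are related surface proteins that act as hedgehog co-receptors. FLRT3, CXCR4 and the small GTPase RRAS had the smallest adjusted p among the falls, with log2 changes of -1.67, -1.15 and -1.69. At day 15 the rises so named were CDON (4.75 and 4.54 FPKM in wild type, 51.5 and 42.8 in the labelled knockout, log2 change 3.09), DPYSL5 (2.62 and 2.73 FPKM in wild type, 38.5 and 27.9 in the labelled knockout, log2 change 3.20) and BOC (log2 change 2.43), and the falls were FLRT2 (59.4 and 51.9 FPKM in wild type, 20.7 and 21.5 in the labelled knockout, log2 change -1.36), RAC1 (log2 change -0.71) and ABLIM1 (-0.68).

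By position, all 63 members were found in GENCODE release 29 on GRCh38. Exons of 17 members overlap a gene on the opposite strand and those of 6 a gene on the same strand. As the strand setting of the counting is not given in the sources used here, reads of such pairs could be divided or merged. Among the members described this concerns EFNA3, EFNA4, EPHA1, EPHA4, EPHB1, EPHB2, EPHB4, NRP1, NRP2, SEMA3B, SEMA3F, SEMA5A, SEMA6A, SLIT1, SLIT3 and UNC5C. It also concerns PLXNA3, PLXNC1, UNC5A and UNC5CL, which passed in no genotype comparison. EFNB2 shares 1313 exon bases with AL138689.2 and SEMA4G 1170 with MRPL43, both on the opposite strand, and PLXNB3 shares 1432 with SRPK3 on its own strand.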

How the data were processed

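The deposited values are read here as FPKM per gene symbol; the unit was inferred from the values, since the labels do not state it. Per the submitters' processing notes BWA and hg38 (GRCh38) were used; the quantifier, annotation and strand setting were not given in the sources used here. As the FPKM that the authors deposited are not counts and whole fragments could not be recovered, no count model was used.

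Values were tested as log2(FPKM + 1) with limma 3.58.1 (trend option) in R 4.3.3. A model of 6 group means (6 residual degrees of freedom) was fitted to the 16295 genes at 1 FPKM or more in at least 2 libraries. P-values were two-sided and Benjamini-Hochberg adjusted, with a threshold of 0.05. Members and lists were chosen with earlier results of these data known. Named members are, per genotype comparison, up to 8 rises and 8 falls with at least 5 FPKM in the higher group (4 each over time, 6 for changes between days), and each family's highest. Other members account for their families. Promoters were searched in Python 3.11.15; windows under several starts count once per start. Alternatives were 2 rescalings, dropping the level filter or raising it to 5 FPKM, a pseudocount of 0.1, no trend, the compared groups alone, a replicate block and leaving out each library.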

Additional observations from a re-analysis of the deposited data

Results flagged for a closer look

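These members had a genotype difference that differed between days by a direct test of that difference (limma on all 12 libraries, adjusted over all genes tested). The values are differences of 2 log2 changes, labelled knockout minus wild type, the later day minus the earlier. From day 3 to day 7, EPHA7 moved by 3.30 (SE 0.22, adjusted p = 1.35e-05), EPHA2 by 1.90 (SE 0.19, adjusted p = 0.000157), SEMA3G by 2.49 (SE 0.28, adjusted p = 0.000287) and NTN1 by 2.18 (SE 0.25, adjusted p = 0.000304). EPHA2, SEMA3G and NTN1 were lower in the labelled knockout at day 3, and their wild-type levels dropped by day 7. In the same step EFNA1 moved by -3.02 (SE 0.28, adjusted p = 8.73e-05) and EFNA3 by -3.23 (SE 0.31, adjusted p = 9.76e-05), both having peaked in wild type at day 7.

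From day 7 to day 15, EFNA3 moved by 3.11 (SE 0.31, adjusted p = 9.47e-05), ROBO2 by 2.85 (SE 0.31, adjusted p = 0.00015), UNC5C by 2.60 (SE 0.27, adjusted p = 0.000129), SLIT3 by 1.82 (SE 0.19, adjusted p = 0.000111) and UNC5D by 1.71 (SE 0.18, adjusted p = 0.000143). EPHA7 moved by -2.23 (SE 0.22, adjusted p = 0.000103). The wild type rose to 14.3 and 15.1 FPKM over that step. The 2 steps share the day 7 libraries. Each of these calls held in all 8 fits that left out 1 library. No group has enough libraries for a test of single outlying libraries.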

How the results depend on the processing

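No value of a named member changed sign under any alternative. Counts of members called stayed within 1.5 times under median-ratio rescaling, nuclear scaling, a dropped filter or one of 5 FPKM, a pseudocount of 0.1, no trend and the replicate block. With the compared groups alone, the labelled knockout step from day 7 to day 15 gave 21 calls in place of 36. Leaving out 1 library gave 17 to 20 calls at day 3 (main 26), 26 to 30 at day 7 (36), 24 to 31 at day 15 (35), 30 to 33 and 36 to 40 for the wild-type steps (38 and 43), 31 to 35 and 22 to 33 for the labelled knockout steps (40 and 36), and 20 to 24 and 26 to 35 for the changes between days (27 and 36). Such fits have fewer samples, and the lone library is assumed to vary like the other groups. Of 725 values of named members under other alternatives 723 held, and of 404 with a library left out 376 held. With the replicate number as a block, 27, 36 and 33 members passed at days 3, 7 and 15. The labels do not say that a number marks a shared origin. Deviations of same-numbered libraries correlated at 0.04, 0.02 and -0.12 between genotypes at these days, and at 0.10 to 0.21 between the days of the labelled knockout, whose steps gave 41 and 38 calls with the block. Crossing the numbers at day 15, chosen after seeing the data, gave 34. Depth is not known, so the counting error of low members is not known either.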
